A study of Mus musculus with 2 samples.

Results

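Glucagon (Gcg) and 6 genes used to recognise the glucagon-making alpha cell, Irx1, Irx2, Pou3f4, Ttr, Slc38a5 and Tmem27, were followed cell by cell in the pancreas of mouse embryos at stage E15.5. They were chosen by name, and not by a threshold on these data, and are 7 of the 22023 genes counted in both libraries. One single-cell RNA library came from wild-type embryos (WT). The other came from transgenic embryos in which Mettl3, the catalytic subunit of the RNA m6A methyltransferase, was removed from Pdx1+ pancreatic progenitors (Mettl3pKO). Mesenchyme, vessels and blood do not descend from those progenitors. The driver line, the deleted exons and the number and sex of the embryos in each library are not given in the sources used here. Cells were captured with BD Rhapsody, which tags each captured RNA molecule with a unique molecular identifier (UMI), so that a count is a count of molecules. With 1 library per genotype there was no replicate, no test was made, and every interval below covers counting error only at the 95% level.

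Alpha cells are among the first hormone-producing cells of the developing pancreas. They arise from progenitors that briefly express the transcription factor Neurog3. Gcg encodes proglucagon, which the convertase Pcsk2 cuts to glucagon in the alpha cell. Irx1 and Irx2 are homeodomain factors of the Iroquois family and Pou3f4 (Brn4) is a POU-homeodomain factor; all of them are known for expression in the alpha lineage. Ttr, transthyretin, carries thyroid hormone and, with Rbp4, retinol. Slc38a5 is a glutamine transporter known for its role in alpha-cell growth when glucagon signalling is blocked, and Tmem27 (collectrin) is a membrane glycoprotein that is also known from the beta cell.

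Positions are those of the mouse build GRCm38 (mm10). Gcg is on chromosome 2 (62474530 to 62483650, minus strand). Irx1 (71957921 to 71963723, minus strand) and Irx2 (72628820 to 72634198, plus strand) are both on chromosome 13, with 665 kb between their annotated ends. Slc38a5 (8271133 to 8280179), Pou3f4 (110814280 to 110817207) and Tmem27 (164088830 to 164118860, annotated as Cltrn) are all on the plus strand of the X chromosome.  RefSeq promoters of GRCm38.p6 matched 5 of the 7 genes. The 250 bases before the starts of Gcg and Irx2 are shown because one is the hormone gene and the other the factor closest to it in pattern over the WT cell classes. Capitals mark TAAT, read on both strands (as ATTA on the other), the core letters that homeodomain factors often bind.

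Gcg, chr2:62483654-62483903, minus strand: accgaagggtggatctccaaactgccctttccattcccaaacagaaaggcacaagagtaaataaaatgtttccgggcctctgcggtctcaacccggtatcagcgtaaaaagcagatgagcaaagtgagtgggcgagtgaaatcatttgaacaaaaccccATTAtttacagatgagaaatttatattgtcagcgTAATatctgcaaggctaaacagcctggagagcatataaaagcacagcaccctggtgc

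Irx2, chr13:72628570-72628819, plus strand: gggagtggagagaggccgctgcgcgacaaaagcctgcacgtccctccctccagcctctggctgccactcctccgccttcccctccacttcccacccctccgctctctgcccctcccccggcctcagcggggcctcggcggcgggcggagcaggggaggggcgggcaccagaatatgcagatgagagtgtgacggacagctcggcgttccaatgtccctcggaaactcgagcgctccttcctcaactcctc

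The Gcg window held 2 matches to TAAT and 2 to TATAAA (both strands) and 44.8% G and C. The Irx2 window held 0 of either and 68.4% G and C. The Pou3f4 window held 1 TAAT, the Slc38a5 window 0, and the windows of the 2 annotated starts of Tmem27 held 5 and 1. Of 32851 mouse promoter windows of that length, 54.9% held a TAAT and 12.4% a TATAAA, so that a TAAT by itself does not set these promoters apart.

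In WT, 6384 complete cells were held, and in Mettl3pKO 3624, with medians of 10823 and 16481 UMIs per cell. The shallowest cell had 3803 UMIs in WT and 10719 in Mettl3pKO, and each table stopped inside its last line, so that shallower cells were not analysed here and every share is one of the cells held. A caller of doublets (2 cells under 1 barcode) marked 342 WT cells, which were removed, and 1 Mettl3pKO cell, so that it did not work there and doublets remain in that library. The libraries also shared 33 cell indices. Cells were clustered without the 7 genes, and the alpha-like cluster was named from 8 other marker genes, such as Etv1, Gc, Wnk3 and Peg10. All 8 of these were detected in both libraries, at a summed 7556 counts per 1000000 UMIs (CPM) in WT and 6612 in Mettl3pKO. The cluster held 320 WT cells, 7.54% (6.76 to 8.38) of the epithelial cells kept, and 143 Mettl3pKO cells, 4.96% (4.19 to 5.81), with medians of 12818 and 14634 UMIs per cell and 7.41% and 8.07% mitochondrial UMIs. Acinar-like cells were 43.7% of those epithelial cells in WT and 73.6% in Mettl3pKO, and the alpha-like shares depend on this. Expression ratios were computed only where each library had at least 30 cells of a class. This left out the delta-like, Fev precursor-like and endocrine progenitor-like classes, which held 3, 2 and 10 Mettl3pKO cells.

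Gcg was the hallmark of the alpha-like class. Its summed level was 81823 CPM in WT and 95464 CPM in Mettl3pKO alpha-like cells, and those cells held 94.5% of all Gcg UMIs of the kept WT cells and 85.6% of those in Mettl3pKO. The next WT classes were far lower: 1184 CPM in delta-like, 789 in endocrine progenitor-like and 472 in beta-like cells, apart from 3810 CPM in immune-like cells. That immune value rested on 2 cells with 100 or more Gcg UMIs per 10000 UMIs, called glucagon-high below, and was 119 CPM (102 to 138) without them. In the same way the delta-like level fell to 256 CPM and the endocrine progenitor-like level to 139 CPM without cells high in Gcg or in insulin transcripts (Ins1 and Ins2 together, same threshold).

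A low Gcg level was present in every class. Mesenchyme-like cells, which do not make glucagon, stood at 118 CPM (111.9 to 124.7) in the WT library and 100 CPM (90.5 to 111) in the other, with median depths of 8897.5 and 13433 UMIs, and 54.8% and 54.3% of them had a Gcg UMI once each cell was thinned to 7815 UMIs (60.03% and 72.3% unthinned). Duct and trunk-like, mesothelium-like, endothelium-like, erythroid-like and pericyte-like WT cells had 102 to 132 CPM, with intervals that overlapped from one to the next in the order of levels. A Gcg UMI by itself was therefore no mark of an alpha-like cell at this depth: in WT, 56.9% of Fev precursor-like, 61.2% of endocrine progenitor-like and 65.4% of beta-like cells had a UMI. The share was 96.7% in WT alpha-like cells and 97.2% in Mettl3pKO. Acinar-like cells were above the mesenchyme-like level in both libraries, at 201 CPM (196 to 207) for WT and 122 CPM (119 to 126) for Mettl3pKO.

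**Figure D1:**
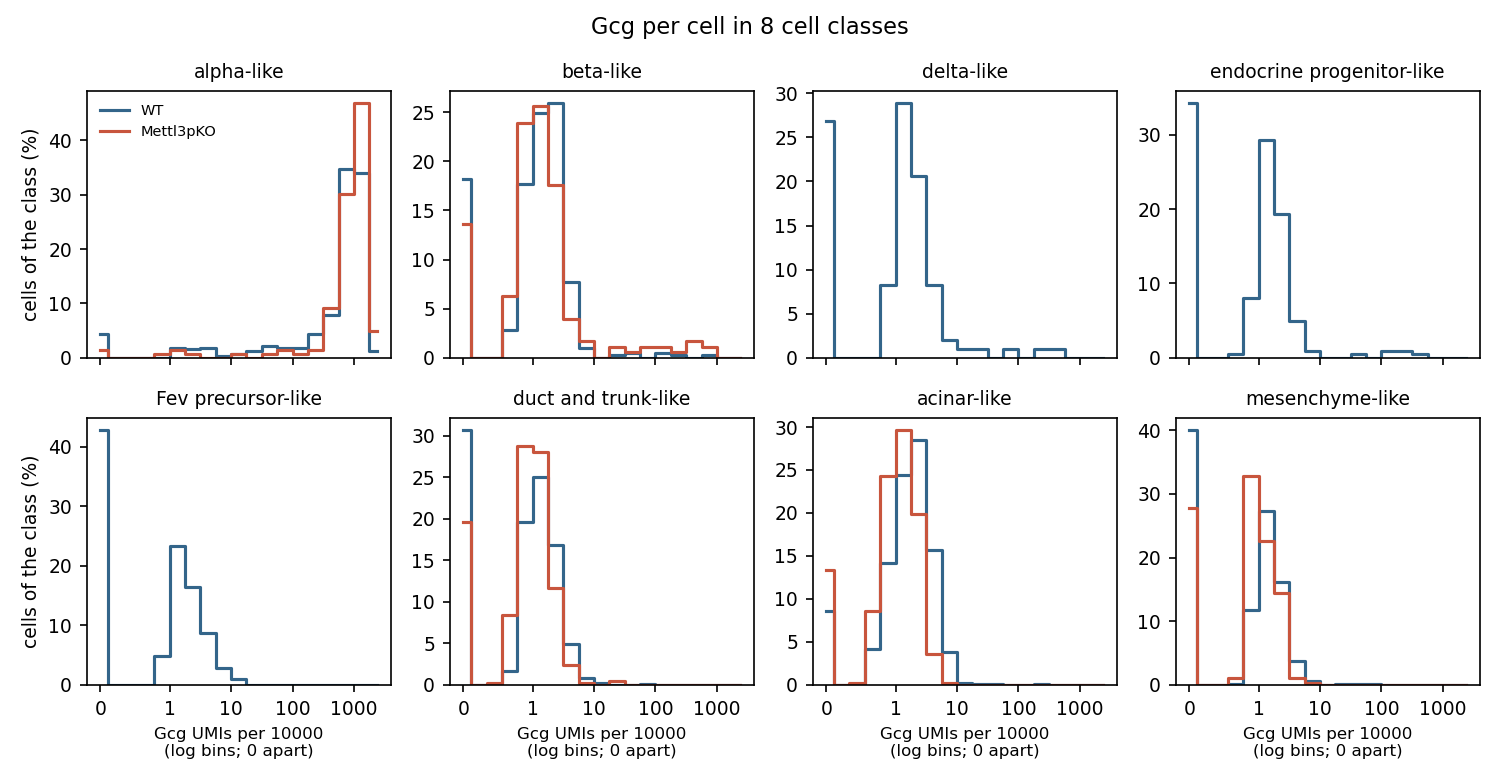
Gcg UMIs per 10000 UMIs of each cell (horizontal axis, logarithmic bins with 0 apart) against the percentage of the class's cells (vertical axis) in 8 classes, WT in blue and Mettl3pKO in red where the class has 30 or more cells. Alpha-like cells pile up near 1000 in both libraries (medians of 851 and 1019), while the other classes centre near 1. A few cells of other classes reach 100 or more: 4 WT and 8 Mettl3pKO beta-like, and in WT 5 endocrine progenitor-like, 2 delta-like and 1 acinar-like.

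Irx1 and Irx2 were nearly absent from acinar-like and duct and trunk-like cells, but not more confined to alpha-like cells than the hormone. WT alpha-like cells held 81.0% of the Irx1 and 83.5% of the Irx2 UMIs of the kept WT cells, against 94.5% for Gcg. Irx1 stood at 307 CPM (291 to 324) in WT alpha-like cells, 70.9 (60.1 to 83.1) in endocrine progenitor-like and 16.0 (8.96 to 26.4) in delta-like cells, and was at 0.257 in acinar-like and 0.342 in duct and trunk-like cells. Irx2 followed the same order, with 384 CPM (366 to 403), 98.4 (85.6 to 113) and 28.8 (19.0 to 41.9). For both genes the alpha-like and progenitor-like levels stood apart by their intervals, and the intervals of delta-like and Fev precursor-like cells overlapped. In thinned cells, 83.5% of WT and 81.8% of Mettl3pKO alpha-like cells had an Irx1 UMI and 87.5% and 86.7% had an Irx2 UMI. In WT mesenchyme-like cells the shares were 3.27% and 1.64%. Mesenchyme-like cells carried 72 Irx1 UMIs against 17 of Irx2. Per Gcg UMI, Irx1 was at 0.0547 there and at 0.00376 in alpha-like cells, so that these Irx1 UMIs did not come in the alpha-like proportion to Gcg.

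Pou3f4 had another order. It was at 141 CPM (130 to 152) in WT alpha-like cells, at 101 (81.8 to 124) in Fev precursor-like cells and at 60.2 (50.2 to 71.5) in endocrine progenitor-like cells, followed by beta-like cells at 5.13. Fev marks a stage between the Neurog3+ progenitor and the hormone cell. Of 72 thinned WT Fev precursor-like cells, 27 (37.5%, 26.4 to 49.7) had a Pou3f4 UMI, against 0.117% of mesenchyme-like cells. An Irx1 UMI was found in 2 of these 72 cells and an Irx2 UMI in 2.

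Ttr, Slc38a5 and Tmem27 were broader endocrine genes. Ttr was at 6591 CPM in WT alpha-like, 1548 in beta-like, 1143 in Fev precursor-like, 719 in delta-like, 650 in acinar-like and 426 in duct and trunk-like cells, and at 15.0 in mesenchyme-like cells. Slc38a5 was at 2500 CPM in alpha-like, 685 in beta-like, 647 in Fev precursor-like and 71.6 in acinar-like cells. Tmem27 was at 1327 CPM in alpha-like, 809 in delta-like, 333 in beta-like and 298 in Fev precursor-like cells, with 49 UMIs in all 1855 acinar-like cells. In beta-like cells there were 3.28 Ttr UMIs per Gcg UMI, against 0.0806 in alpha-like cells, so that Ttr there was not in the alpha-like proportion to Gcg. The 7 WT hepatocyte-like cells, from the tissue that secretes transthyretin, had 8375 CPM of Ttr.

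**Figure D2:**
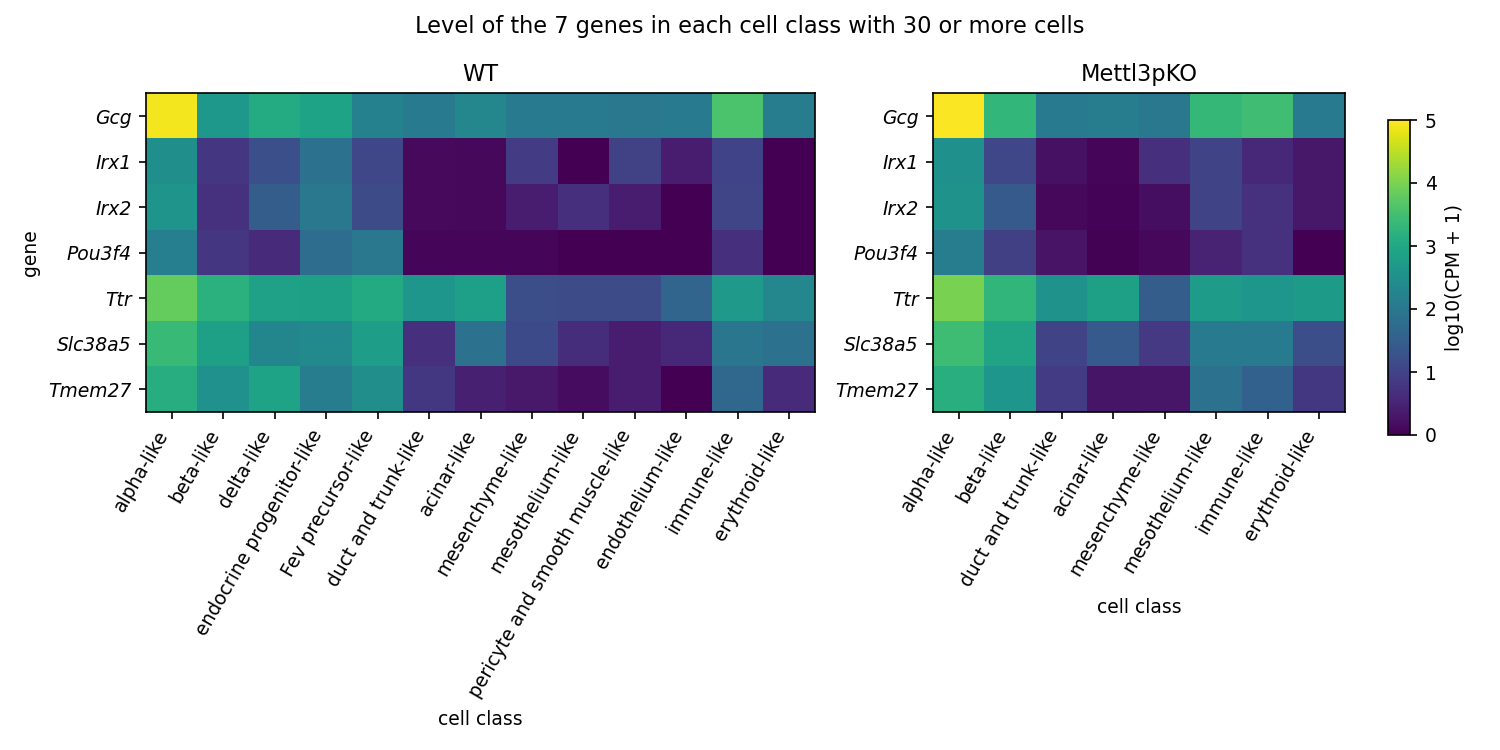
Summed level of each gene (rows) in each class with 30 or more cells (columns), as log10(CPM + 1), for WT at left and Mettl3pKO at right. Colours are best compared along a row, since the genes differ widely in level. Each row is brightest in alpha-like cells in both libraries; Irx1, Irx2 and Pou3f4 are near 0 in acinar-like and duct and trunk-like cells, while Ttr stays bright there.

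Alpha-like cells usually carried most of the set. In thinned cells, all 7 genes were detected in 132 of 303 WT (43.6%) and 57 of 143 Mettl3pKO alpha-like cells (39.9%), and the median was 6 of 7 in both. All 3 factors were detected in 137 WT (45.2%) and 57 Mettl3pKO cells (39.9%), and none of the 3 in 11 and 6 cells. Of WT alpha-like cells with Irx1, 89.7% (85.3 to 93.2) also had Irx2, against 76.0% (61.8 to 86.9) of those without. The Mettl3pKO shares were 91.5% and 65.4%. Of acinar-like cells, 0 of 1721 in WT and 0 of 2124 in Mettl3pKO had even 2 of the 3 factors, which allows shares of up to 0.174% and 0.141%. Of 165 WT endocrine progenitor-like cells, 18 had 2 of the 3 factors (10.9%), 19 had all 3 (11.5%) and 8 had all 7 genes. Elsewhere such cells were few in both libraries. In WT, 2 of the 3 factors were found in 4 of 379 beta-like (1.06%), 2 of 71 delta-like (2.82%), 2 of 110 immune-like (1.82%) and 3 of 856 mesenchyme-like cells (0.350%). In Mettl3pKO they were found in 3 of 81 mesothelium-like (3.70%), 2 of 80 immune-like (2.5%) and 7 of 176 beta-like cells (3.98%). All 7 genes were found in 1 of 427 duct and trunk-like Mettl3pKO cells and in 1 of 379 beta-like WT cells.

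Within the WT endocrine progenitor-like class, led by Neurog3 and the ghrelin gene Ghrl, Irx2 divided the cells. Of 44 thinned cells with an Irx2 UMI, 41 had Ghrl (93.2%, 81.3 to 98.6). Of 121 cells without one, 8 had Ghrl (6.61%, 2.90 to 12.6). Neurog3 ran the other way, in 22 of 44 cells with Irx2 and 120 of 121 without (99.2%). Irx1 gave the same division, with Ghrl in 30 of 33 cells with Irx1 and 19 of 132 without, and Neurog3 in 12 and 130. Gcg was detected in like shares of the cells with and without Irx2 (63.6%, 47.8 to 77.6, and 60.3%, 51.0 to 69.1), beside 54.8% of mesenchyme-like cells. Ghrl helped to define this cluster, so that these are descriptions within it.

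**Figure D3:**
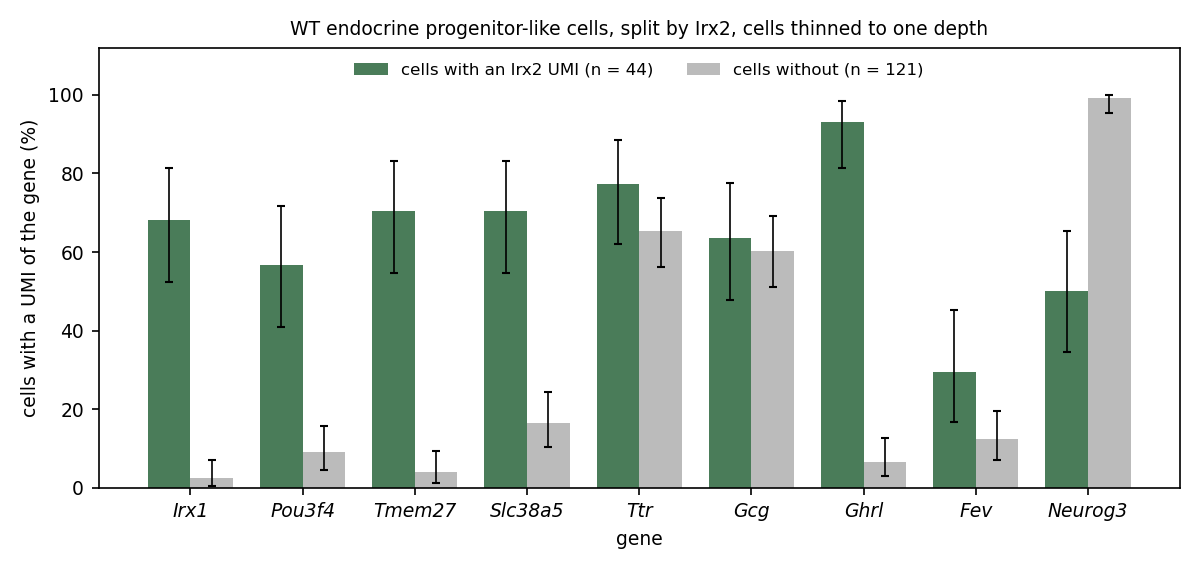
Percentage of WT endocrine progenitor-like cells with a UMI of each gene (vertical axis, bars from 0, 95% binomial intervals), for the 44 cells with an Irx2 UMI (green) and the 121 without (grey). Ghrl, Irx1 and Tmem27 bars are high in green and low in grey, Neurog3 is lower in green, and the Gcg intervals overlap.

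A split by ghrelin, chosen after these values were seen, gave the same picture as levels. The WT progenitor-like class held 33 cells with 100 or more Ghrl UMIs per 10000. In them Irx1 was at 317 CPM, Irx2 at 406 and Pou3f4 at 157, against 20.8, 35.9 and 40.4 in the other 189 cells of the class. Neurog3 was at 1062 CPM in the ghrelin-high and 9030 in the other cells. The 3 factor levels in ghrelin-high progenitor-like cells were close to those of WT alpha-like cells, while their Gcg level was 2988 CPM against 81823. Of those 1083 Gcg UMIs, 1005 lay in 2 glucagon-high cells, and the other 31 cells had 231 CPM (183 to 289) of Gcg, with Irx1 at 320, Irx2 at 427 and Pou3f4 at 157. Another 13 ghrelin-high WT cells lay in the alpha-like class and had 108840 CPM of Gcg. All kept cells together held 46 ghrelin-high cells in WT and 2 in Mettl3pKO, of which 0 were alpha-like. The Mettl3pKO progenitor-like class held only 10 cells in all, so that a loss of ghrelin-high cells cannot be told apart from the small class.

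In alpha-like cells 0 of 7 genes were at least 1.5-fold higher or lower in Mettl3pKO, against 12.8% of the 11624 genes with at least 20 UMIs over both libraries. By direction, 7.66% of genes were higher and 5.19% lower. A count of 0 of 7 is near that share, and 4 of the 7 counting intervals left out 1. The median log2 ratio of the 7 was 0.09 and that of all genes tested was 0.00. Gcg was 1.17-fold higher (1.16 to 1.17) and Ttr 1.48-fold higher (1.451 to 1.503; 6591 to 9732 CPM). Slc38a5 was 1.12-fold higher (1.08 to 1.15; 2500 to 2798 CPM) and Tmem27 1.06-fold higher (1.02 to 1.11; 1327 to 1412 CPM). The 3 factors had intervals that held 1: Irx1 at 1.03 (0.936 to 1.13; 307 to 316 CPM), Irx2 at 0.961 (0.883 to 1.05; 384 to 370 CPM) and Pou3f4 at 0.906 (0.784 to 1.04; 141 to 128 CPM). At clustering resolution 0.5 all 3 lay below 1, Irx1 at 0.819 (0.749 to 0.895), Irx2 at 0.743 (0.684 to 0.805) and Pou3f4 at 0.715 (0.625 to 0.817). That setting drew a larger class, of 380 WT and 179 Mettl3pKO cells against 320 and 143. It left 183 Mettl3pKO cells unnamed for high doublet scores, against 218. These ratios are thus not for the same cells. Shares of thinned alpha-like cells with a UMI had ratio intervals that held 1 for each of the 7. Mettl3 itself was at 14.4 CPM in WT and 11.7 CPM in Mettl3pKO alpha-like cells, a ratio of 0.812 (0.493 to 1.30) from 62 and 26 UMIs, and whether the counted RNA lies in the deleted part is not known.

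The Ttr ratio lay at the 1.5-fold line and the Gcg ratio moved with depth. Ttr was between 1.32 and 1.61 over the alternatives, and past 1.5 in 8 of them. Gcg was 1.07-fold higher among cells of at least 10719 UMIs, the common floor of both libraries, and 1.03-fold among cells of at least 13000. It was 1.10-fold among glucagon-high alpha-like cells only. The 8 hepatocyte markers, such as Alb and Afp, summed to 128 CPM in WT and 284 in Mettl3pKO alpha-like cells, and erythroid markers to 4864 and 684; their part in the Ttr ratio was not tested.

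**Figure D4:**
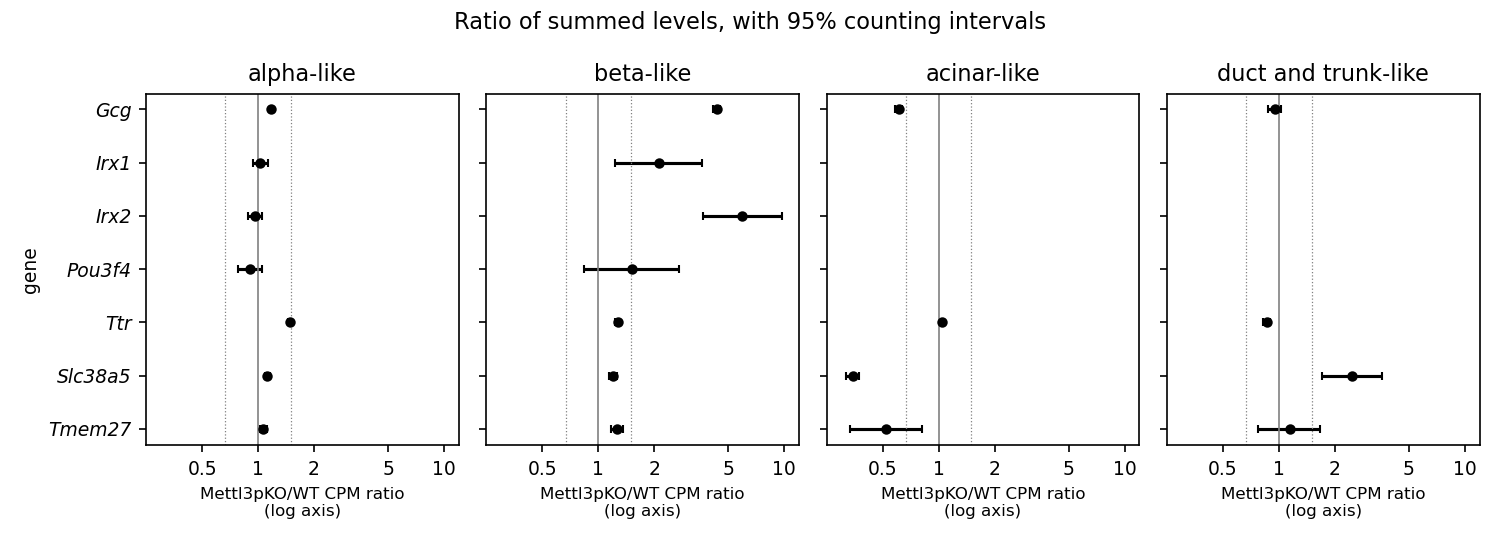
Mettl3pKO/WT ratio of summed CPM (horizontal logarithmic axis) for each gene in 4 classes, with 95% counting intervals; the solid line is 1, the dotted lines are 1.5-fold either way, and genes under 20 UMIs are not drawn. All 7 points lie inside the dotted lines in alpha-like cells; Gcg, Irx1 and Irx2 lie to the right in beta-like cells and Gcg, Slc38a5 and Tmem27 to the left in acinar-like cells.

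The Gcg ratio was alike in alpha-like cells of each sex. Alpha-like cells with Xist and no Y-linked UMI numbered 141 in WT and 27 in Mettl3pKO, and cells with a Y-linked UMI and no Xist 142 and 98. Gcg was 1.18-fold higher in each set, 1.04-fold in the 37 WT and 18 Mettl3pKO cells with both or neither, and Ttr 1.41-fold (1.36 to 1.46) and 1.56-fold (1.52 to 1.60). The X-linked Slc38a5 was at 0.995 (0.932 to 1.06) in the first set 1.30 (1.24 to 1.35) in the second and 0.847 (0.771 to 0.930) in the cells with both or neither, while its ratio over all alpha-like cells was 1.12. The X-linked Pou3f4 was at 0.868 (0.621 to 1.19) and 0.827 (0.685 to 0.995). Irx2 was at 0.813 (0.670 to 0.981) in the first set and 0.932 (0.835 to 1.04) in the second. In the cells with both or neither, Ttr was at 1.24 (1.18 to 1.31), Pou3f4 at 1.07 (0.714 to 1.58) and Irx2 at 1.24 (0.973 to 1.56).

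Gcg varied widely among alpha-like cells. Per 10000 UMIs, the 10th percentile, median and 90th percentile were 13.9, 851 and 1374 in WT and 367, 1019 and 1524 in Mettl3pKO. Alpha-like cells under 100 Gcg UMIs per 10000 made up 51 of 320 in WT (15.9%) and 10 of 143 in Mettl3pKO (6.99%), and their median depth was 9149 and 14043 UMIs. The 51 WT cells kept Irx2 at 299 CPM, Pou3f4 at 123, Slc38a5 at 2168 and Tmem27 at 1239, against 396, 143, 2545 and 1339 in the other 269. Irx1 was at 162 against 327 CPM, and Ttr at 3449 against 7015. Fev was higher in the cells low in Gcg (484 against 239 CPM). So was Ins1 (2129 against 275 CPM), but 3 insulin-high cells held 1010 of its 1091 UMIs there, and the other 48 cells had 174 CPM (138 to 216). In the 10 Mettl3pKO cells low in Gcg more of the set was lower: Irx1 was at 40.4 against 335 CPM (6 UMIs), Irx2 at 168 against 384, Slc38a5 at 1554 against 2887 and Ttr at 3438 against 10182.

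The alpha-like cells of each library were put in 4 equal groups ordered by Gcg. From the least Gcg to the most, WT Ttr stood at 3751, 5620, 7876 and 8389 CPM, and in Mettl3pKO at 5793, 10830, 11458 and 10957. Irx1 was lower in the group with the least Gcg than in the others in both libraries, at 207 CPM in each. Per cell, Gcg and Ttr had a Spearman correlation of 0.45 over 320 WT and 0.31 over 143 Mettl3pKO cells, both as parts of the same cell total. The WT group with the least Gcg was also the shallowest, with a median of 9870 UMIs against 13214 to 15225 in the others.

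**Figure D5:**
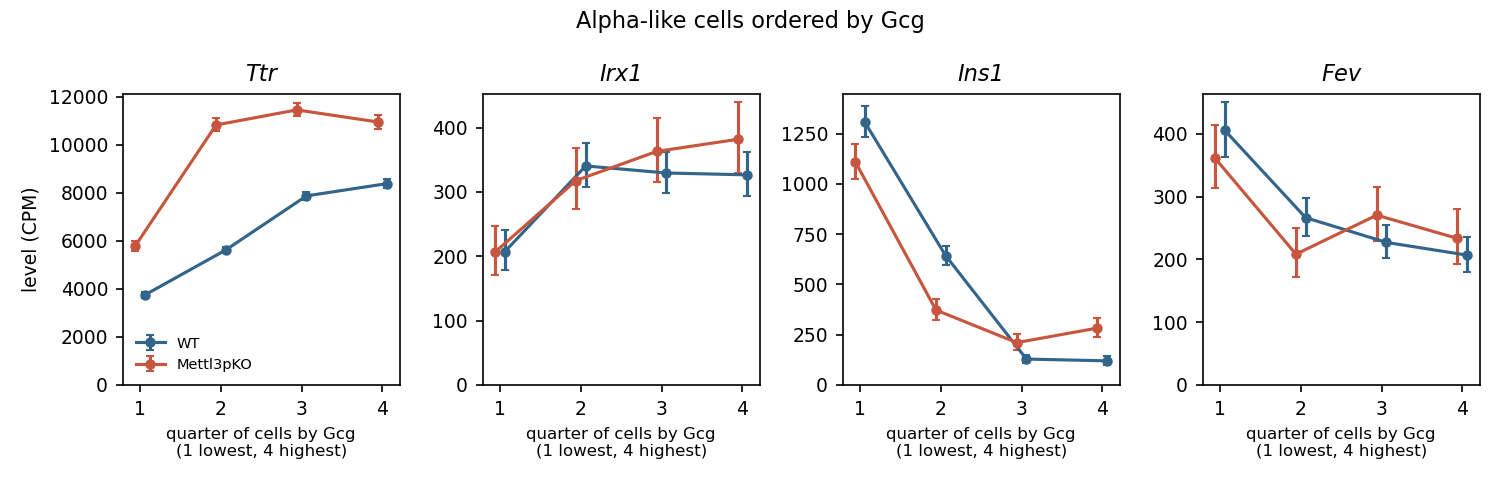
Level in CPM (vertical axis from 0) of Ttr, Irx1, Ins1 and Fev in 4 equal groups of alpha-like cells ordered by Gcg per UMI (horizontal axis), WT in blue and Mettl3pKO in red, with 95% counting intervals. Ttr and Irx1 are lowest and Ins1 and Fev highest in the group with the least Gcg, in both libraries; the WT Ins1 point there includes 3 insulin-high cells.

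Glucagon-high cells were counted by their Gcg level among all cells that clustering had placed in epithelial classes. In WT, 281 of the 4243 epithelial cells passed (6.62%, 5.89 to 7.41), and 141 of 2885 passed in Mettl3pKO (4.89%, 4.13 to 5.74), a ratio of 0.738 (0.598 to 0.907). It was 0.728 at 30 and 0.785 at 300 UMIs per 10000. Another 12 glucagon-high Mettl3pKO cells and 0 WT ones lay in unnamed clusters and were not counted. With those clusters named by their markers the ratio was 0.792 (0.646 to 0.967). The direction did not hold under every alternative. With a minimum of 500 genes per cell and a maximum of 10% mitochondrial UMIs the ratio was 1.09 (0.858 to 1.37). Among cells with Xist and no Y-linked UMI it was 1.01 (0.644 to 1.53). Both intervals held 1 and overlapped the main one. The mitochondrial median of acinar-like cells, which make up most of the denominator in Mettl3pKO, was 6.22% in WT and 10.7% there, beside 7.41% and 8.07% in alpha-like cells. Acinar-like cells were 43.7% of the epithelial cells in WT and 73.6% in Mettl3pKO. A lower glucagon-high share therefore cannot be told apart from a larger acinar-like class. Among all kept cells, 283 of 6030 in WT and 157 of 3622 in Mettl3pKO were glucagon-high.

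In beta-like cells, the insulin makers, Gcg was at 472 CPM in WT and 2043 in Mettl3pKO, a ratio of 4.32 (4.13 to 4.53). Irx2 was 5.88-fold (3.67 to 9.75; 4.25 to 24.99 CPM), Irx1 2.11-fold (1.23 to 3.61; 5.13 to 10.8 CPM) and Pou3f4 1.51-fold higher (0.836 to 2.71; 5.13 to 7.77 CPM). Ttr (1.27), Tmem27 (1.26) and Slc38a5 (1.20) were within 1.5-fold. Thus 4 of 7 genes were at least 1.5-fold higher and 0 lower, against 10.6% and 6.7% of 11621 genes. Few cells held most of the Gcg. Glucagon-high cells were 4 of 390 WT and 8 of 176 Mettl3pKO beta-like cells and held 61.9% and 84.5% of the class's Gcg UMIs. Without them Gcg was at 182 and 332 CPM, 1.82-fold. Irx2 stayed at 5.32-fold without them (2.93 to 10.1), while Irx1 was at 1.32 (0.655 to 2.59) and Pou3f4 at 1.42 (0.732 to 2.72). The 8 glucagon-high Mettl3pKO cells had a median doublet score of 0.123, against 0.0103 in the other cells. With the 5% of cells of the highest doublet score removed, 0 of these 4 genes stayed past 1.5-fold higher: Gcg was at 1.40, Irx2 at 1.42, Pou3f4 at 0.812 and Irx1 at 0.418. Clusters were drawn anew there, and the class held 422 WT and 155 Mettl3pKO cells. The removal of doublets and the change of class cannot be told apart. Under the stricter cell filter, also clustered anew, the class held 244 WT and 157 Mettl3pKO cells, with Gcg at 14.9 and Irx1 at 18.8. At resolution 0.5, with 488 and 178 cells, Pou3f4 turned to 0.481. Mesenchyme markers summed to 122 CPM in WT and 1785 in Mettl3pKO beta-like cells; their part, and that of doublets in the rest of the difference, was not tested.

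In acinar-like cells, the enzyme-secreting cells, Slc38a5 was 0.344-fold (0.319 to 0.372; 71.6 to 24.7 CPM), Gcg 0.609-fold (0.586 to 0.633) and Tmem27 0.524-fold (0.334 to 0.817; 49 and 38 UMIs). That was 3 of the 4 genes with at least 20 UMIs at least 1.5-fold lower and 0 higher, against 8.76% and 21.2% of 13584 genes, whose median log2 ratio was 0.17. Ttr was at 1.05 (1.03 to 1.07, from 650 to 682 CPM). The sexes were unevenly spread: 1368 WT and 435 Mettl3pKO acinar-like cells had Xist and no Y-linked UMI. Another 170 and 1104 had a Y-linked UMI and no Xist. Ttr was at 1.01 (0.981 to 1.04) in the first set and 1.49 (1.40 to 1.58) in the second. In cells with both or neither it was at 1.08. In the same order Slc38a5 was at 0.321, 0.294 and 0.281, Gcg at 0.639, 0.415 and 0.591, and Tmem27 at 0.750, 0.282 and 0.451. The share of thinned acinar-like cells with an Slc38a5 UMI was 29.9% in WT and 13.1% in Mettl3pKO, against 5.72% and 3.96% of mesenchyme-like cells. Different acinar-like clusters held most of the class in each library. Within the 7 clusters with at least 30 cells of each, Slc38a5 was above 1 in 4 and below 1 in 3 (0.289 to 1.75), Gcg below 1 in 6 (0.626 to 1.04) and Ttr above 1 in 6 (0.854 to 1.49). The Slc38a5 difference was thus not shared by the clusters. In duct and trunk-like cells Slc38a5 was 2.46-fold higher (1.70 to 3.57; 3.83 to 9.40 CPM), beside mesenchyme-like levels of 12.48 and 5.83 CPM, and Ttr 0.860-fold (0.821 to 0.900; 426 to 366 CPM). Here too the clusters differed: the one highest in Ttr held 403 WT and 12 Mettl3pKO cells. Within the 3 other clusters Ttr was between 0.931 and 1.11, and Slc38a5 was at 14.9 (9 and 26 UMIs) and 1.25 (0.763 to 2.08) in the 2 where it was measured. Over the whole class 1 of 4 genes was at least 1.5-fold higher, against 11.8% of 12837, and 0 lower, against 9.66%.

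The classes outside the epithelium do not descend from Pdx1+ progenitors, and few of the genes were measured there. In mesenchyme-like cells 1 of 4 measured genes was at least 1.5-fold higher and 2 lower, against 8.82% and 6.38% of 12449 genes. Ttr was the higher one (1.96, 1.53 to 2.50; 15.0 to 29.4 CPM), and Slc38a5 (0.467, 0.287 to 0.730) and Irx1 (0.588, 0.313 to 1.04; 72 and 15 UMIs) the lower. Ttr was above 1 in each of the 3 mesenchyme-like clusters (1.83 to 2.42). In erythroid-like cells Ttr was 2.55-fold (2.21 to 2.94; 210 to 534 CPM) and Slc38a5 0.205-fold (0.109 to 0.359; 74.2 to 15.2 CPM), 1 of 3 measured genes in each direction, against 28.6% and 27.1% of 8734 genes, which is near that share. One erythroid-like cluster held 69 WT and 2 Mettl3pKO cells; in the other, of 46 and 47 cells, Ttr was at 1.09 (0.941 to 1.26) and Slc38a5 at 0.266 (0.120 to 0.552). In immune-like cells 0 of 5 were higher and 1 lower, Irx2 from 15 and 6 UMIs, against 18% and 10.9% of 10373 genes. Without the hormone-high cells of each library Irx2 was at 0.682 CPM in WT and at 0 in Mettl3pKO immune-like cells. In mesothelium-like cells 5 of 5 were higher and 0 lower, against 14.3% and 13.4% of 10899 genes, but 2 of the 81 Mettl3pKO cells were glucagon-high and 4 insulin-high. Without these 6 cells Gcg was at 93.9 CPM (77.6 to 113), below the 117 of WT, and Ttr at 224 CPM (199 to 252) against 12.9. In immune-like cells Ttr was at 0.829 (0.744 to 0.924) over all cells and at 3.44 (2.64 to 4.52; 50.5 to 173 CPM) without the 2 hormone-high cells of each library. Ttr was thus higher in the Mettl3pKO library in mesenchyme-like cells and, with hormone-high cells left out, in mesothelium-like and immune-like cells. Slc38a5, lower in mesenchyme-like and erythroid-like cells, was also higher in these 2 classes with hormone-high cells left out. It was at 21.9 (5.69 to 187, from 2 and 41 UMIs) in immune-like and 5.35 (2.22 to 14.8, from 7 and 23 UMIs) in mesothelium-like cells.

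Other alpha-cell genes were described from lists chosen with earlier results of these data known, beside the 7.66% of all genes in alpha-like cells that were at least 1.5-fold higher and the 5.19% lower. Of 16 measured islet transcription factors, 0 were at least 1.5-fold higher and 0 lower in Mettl3pKO alpha-like cells, with a median log2 ratio of -0.17. Meis2 was at 0.729 (0.690 to 0.769), Insm1 at 0.798, Pax6, which activates Gcg, at 0.802, and Pdx1 at 1.33 (1.00 to 1.77). Of 14 genes for prohormone processing and granules, 1 was higher, Chga (1.55), which encodes chromogranin A, and 1 lower, Pcsk1 (0.459, 0.355 to 0.588), the convertase that makes GLP-1. Pcsk1n was at 1.45, Ptprn at 1.37 and Pcsk2 at 1.05. Of 8 other islet hormones, 1 was higher, Npy (4.41, from 25 and 57 UMIs), and 4 were lower, Sst (0.179), Ghrl (0.249, 0.228 to 0.272; 1017 to 253 CPM), Pyy (0.651) and Ppy (0.657). Without the 13 ghrelin-high WT cells Ghrl was at 0.482 (0.439 to 0.529; 525 to 253 CPM). Cells rich in these hormones also differed in number by library. The delta-like class, whose leading genes included Sst, Pyy and Ppy, held 97 WT and 3 Mettl3pKO cells, and ghrelin-high cells numbered 46 and 2. The part of RNA from such cells in the alpha-like hormone counts was not tested. Of 7 Iroquois and POU class 3 paralogs, 0 reached 20 UMIs in alpha-like cells, and the only one detected was Pou3f1, with 5 UMIs in each library. Of 12 measured amino acid transporters related to Slc38a5, 0 passed in either direction; Slc7a5 was at 0.726, Slc38a2 at 0.729 and Slc7a8 at 0.774. Of 6 measured retinol carriers and collectrin partners, 1 was higher, Bace2 (2.50, 1.89 to 3.31), a protease that cuts Tmem27; Snapin was at 0.757 and Stx1a at 0.762.

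Genes most like Gcg over the 13 WT classes were ranked by Pearson r of log2(CPM + 1) among 4666 genes, over classes that share 1 library. Serpina1b, an alpha-1 antitrypsin gene, came first (r = 0.904), followed by Gast, the gastrin gene (0.845), Hpgds (0.833), Gpr119 (0.830) and Nap1l5 (0.828). Irx2 ranked 6 and Irx1 ranked 9, Tmem27 ranked 18, Slc38a5 29, Ttr 35 and Pou3f4 50. The next others were Resp18, Gpx3, Rab37, Cst3 and Map3k15. Since 2 cells set the Gcg level of the immune-like class, the ranking was repeated over the 12 other classes: Gast then ranked 1, Serpina1b 2, Irx2 6, Hpgds 8 and Irx1 9, while Cst3 fell to 32, Gpx3, Rab37 and Map3k15 left the first 10, and Emc10 and Denr entered at 3 and 4. In alpha-like cells Serpina1b, one of several near-identical copies, was 2.15-fold higher in Mettl3pKO (1.92 to 2.42; 131 to 283 CPM), and Gast was 0.615-fold (0.542 to 0.696; 245 to 151 CPM). The other 8 were between 0.834 (Hpgds) and 1.43 (Resp18).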

How the data were processed

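Each library was deposited as a table of UMI counts, in whole numbers, with a cell per line and a gene per column. They were made with the BD Rhapsody whole-transcriptome pipeline, version 1.8, with a mouse STAR index, per the file headers; the submitters' processing notes also name mm10 and Seurat. Each table ended inside its last line, and that cell was dropped. A cell needed 200 genes and could hold up to 25% mitochondrial UMIs; 6030 WT and 3622 Mettl3pKO cells remained after Scrublet. With scanpy 1.11.5, 2000 variable genes without the 7 genes, 30 principal components and 15 neighbours gave Leiden clusters at resolution 1, and each took the class whose markers scored highest, with at least 3 of them at 0.1 UMIs per 10000. A median doublet score over 0.1 left a cluster without a name. Epithelial cells were those of the exocrine (acinar, duct and trunk) and endocrine (progenitor, Fev precursor, alpha, beta, delta) classes.

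UMIs were summed per class and library and given per 1000000 (CPM) with exact Poisson intervals. Ratios carry exact conditional binomial and shares exact Clopper-Pearson intervals, and 3 counts were taken as the limit behind a 0. Thinning drew 7815 UMIs per cell, leaving out shallower cells. The named genes are the 7, the 10 most like Gcg, and, from each list, the 2 to 4 genes of at least 20 UMIs with the ratio farthest from 1, plus every gene past 1.5-fold; Pcsk2 and the genes compared within alpha-like and progenitor-like cells (Ghrl, Fev, Neurog3, Ins1) were named after values were seen. Some genes of the lists and markers are not reported here. The 7 genes, lists and markers were chosen with earlier results of these data known. The interval computation was tested on simulated data. Alternatives covered filters, doublets, depth, clustering, class assignment, denominator, sex and thresholds. Gene positions came from GENCODE (GRCm38), promoters from RefSeq (GRCm38.p6).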

Additional observations from a re-analysis of the deposited data

Results flagged for a closer look

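Several genes had Mettl3pKO/WT ratios in opposite directions in different epithelial classes, each with a counting interval that left out 1; with 1 library per genotype the differences between classes were not tested. Gcg was at 0.609 in acinar-like and 4.32 in beta-like cells, and at 1.82 in beta-like cells without glucagon-high cells. Slc38a5 was at 0.344 in acinar-like and 2.46 in duct and trunk-like cells. Tmem27 was at 0.524 in acinar-like and 1.26 in beta-like cells. Ttr was at 0.860 in duct and trunk-like and 1.48 in alpha-like cells. The acinar-like and the duct and trunk-like cells of each library lay mostly in different clusters. Within clusters Slc38a5 was between 0.289 and 1.75 in acinar-like cells and Ttr between 0.931 and 1.11 in duct and trunk-like cells. The directions of these 2 were thus not shared by the clusters. Gcg was below 1 in 6 of 7 acinar-like clusters. Slc38a5 was above 1 in the 2 duct and trunk-like clusters measured, at 14.9 and 1.25, the latter with an interval that held 1.

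The 218 Mettl3pKO cells of 2 unnamed clusters entered no comparison between the libraries except in some alternatives. They had 3479 CPM of Gcg, above the 100 CPM of mesenchyme-like cells. Of them, 12 were glucagon-high. Without cells high in Gcg or insulin transcripts the level was 213 CPM (200 to 228). The clusters had median doublet scores of 0.186 and 0.128.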

How the results depend on the processing

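The Gcg ratio in alpha-like cells stayed above 1 in all 16 alternatives: 1.22 with the stricter filter, 1.31 without the mitochondrial filter, 1.23 with marked doublets kept, 1.20 without the top 5% of doublet scores, 1.07 at the common floor, 1.03 at 13000 UMIs, 1.22 with the 7 genes in the clustering, 1.04 and 1.23 at resolutions 0.5 and 2, 1.12 with each cell classed by its own markers, 1.20 with the reduced denominator, 1.24 as a mean over cells, 1.18 in the cells of each sex, and 1.10 in glucagon-high cells. This last setting, the beta-like cells without glucagon-high cells, the values within clusters or without hormone-high or ghrelin-high cells, and the ranking without immune-like cells were chosen after seeing the data. The number past 1.5-fold was 1, Ttr, in 8 alternatives (no mitochondrial filter, doublets kept, top scores removed, the 7 genes in the clustering, resolution 2, reduced denominator, mean over cells, and Y-linked cells) and 0 in the rest. The glucagon-high ratio was 0.544 at the common floor, 0.462 at 13000 UMIs and 0.505 in Y-linked cells. With the stricter filter it was 1.09 and in Xist cells 1.01, each with an interval that held 1. At resolution 0.5, where the class held 380 WT and 179 Mettl3pKO cells, Slc38a5 (0.937) and Tmem27 (0.893) in alpha-like cells turned. Slc38a5 was 0.995 in Xist cells. Irx1 in beta-like cells turned to 0.801 with doublets kept, 0.418 without the top scores, 0.742 by own markers and 0.754 in Y-linked cells. Of these, only the interval at 0.418 (0.158 to 0.945) left out 1. Pou3f4 in beta-like cells turned to 0.481 and 0.482 at resolutions 0.5 and 2 and to 0.812 without the top scores. Over the 16 alternatives the beta-like ratios ranged from 1.40 to 14.9 for Gcg, 1.42 to 37.7 for Irx2, 0.418 to 18.8 for Irx1 and 0.481 to 4.71 for Pou3f4. In alpha-like cells the Irx2 interval lay below 1 at the common floor (0.834 to 0.993) and in Xist cells (0.670 to 0.981), as it did at resolution 0.5. The causes were not tested. No paired analysis was possible because each genotype had 1 library. Depth limits the detection of the factors: Pou3f4 was detected in 56.8% of thinned WT alpha-like cells.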

Other observations

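Some mesenchyme-like cells carried Irx1. Of 856 thinned WT mesenchyme-like cells, 28 had an Irx1 UMI, 14 an Irx2 UMI and 1 a Pou3f4 UMI, and in Mettl3pKO 4, 1 and 1 of 278 did. The WT share with Irx1 was 3.27% (2.18 to 4.69), against 0.174% (0.0360 to 0.509) of acinar-like cells.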
